A study of Mus musculus with 12 samples.

Results

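The acute phase genes *Saa1*, *Saa2*, *Saa3*, *Saa4*, *Orm1*, *Orm2*, *Orm3*, *Hp*, *Lcn2* and *Fgl1* were examined in hepatocyte RNA from mice with floxed GATA factor genes. Members were all probes whose only annotated symbol was among these 10 and that passed detection (detection p at most 0.05) on at least 1 array. Probes annotated to several symbols were left out. This gave 12 probes for 9 of the 10 genes, out of 20561 kept probes and 10838 named genes in the whole data set. No kept probe had *Orm3* as its only symbol, and this gene was therefore not analysed here.

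All mice were GATA4,6 fl/fl, that is, homozygous for *Gata4* and *Gata6* alleles that Cre recombinase can excise. They were of the strain C57BL/6 x 129Sv and 2.5 to 4.5 months old. An intravenous injection of AAV8-Tbg-Cre (AAV-Cre) or AAV8-Tbg-GFP (AAV-GFP) preceded RNA harvest by 2 weeks, so that both groups carried the floxed alleles and had received a virus. The Tbg (thyroxine-binding globulin) promoter drives Cre or green fluorescent protein and is active in hepatocytes, so other liver cells in a preparation keep unexcised alleles where the promoter is silent. Each group had 6 samples on 1 Illumina MouseWG-6 v2 array each. The labels do not say whether each sample was a separate animal, and p-values then measure the spread between these samples. The question was which hepatocyte transcripts depend on GATA4 and GATA6.

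In the acute phase response, the liver changes the set of proteins it secretes into the blood after infection, tissue injury or other inflammatory stimuli. Interleukin-6, acting through STAT3, and interleukin-1, acting through NF-kB and C/EBP factors, switch on the positive acute phase genes in hepatocytes, and glucocorticoids amplify this. The serum amyloid A genes can rise very steeply, while other members are made at a high level all the time.

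The starts of the serum amyloid genes, of *Lcn2* and of *Orm2* are shown because the results turn on which of these genes were high on the same arrays. Of the 10 genes, 7 matched an entry in the RefSeq promoter windows (GRCm38.p6), and *Hp*, *Orm1* and *Fgl1* did not. Each sequence runs 5′ to 3′ from 250 bases before to 50 bases after the start of the gene, in the direction of transcription, and capitals mark matches to the C/EBP-type pattern TTGCNNAA on either strand. *Saa1* is on the minus strand at chr7:46742931-46743230, *Saa2* on the plus strand at chr7:46751583-46751882, *Saa4* on the minus strand at chr7:46732554-46732853, *Lcn2* on the minus strand at chr2:32387690-32387989, *Orm2* on the plus strand at chr4:63362199-63362498 and *Saa3* on the minus strand at chr7:46715627-46715926.
Saa1: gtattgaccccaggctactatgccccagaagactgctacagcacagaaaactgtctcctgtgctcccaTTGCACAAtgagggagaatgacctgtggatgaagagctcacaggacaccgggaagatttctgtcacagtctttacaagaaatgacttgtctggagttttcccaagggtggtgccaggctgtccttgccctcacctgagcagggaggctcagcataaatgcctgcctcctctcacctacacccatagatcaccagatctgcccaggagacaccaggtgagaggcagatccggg
Saa2: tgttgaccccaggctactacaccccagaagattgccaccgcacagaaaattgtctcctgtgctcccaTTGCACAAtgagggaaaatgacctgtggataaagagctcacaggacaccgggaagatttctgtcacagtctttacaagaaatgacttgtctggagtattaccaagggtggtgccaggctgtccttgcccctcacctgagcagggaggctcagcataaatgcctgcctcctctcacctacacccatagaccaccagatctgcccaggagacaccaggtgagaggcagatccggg
Saa4: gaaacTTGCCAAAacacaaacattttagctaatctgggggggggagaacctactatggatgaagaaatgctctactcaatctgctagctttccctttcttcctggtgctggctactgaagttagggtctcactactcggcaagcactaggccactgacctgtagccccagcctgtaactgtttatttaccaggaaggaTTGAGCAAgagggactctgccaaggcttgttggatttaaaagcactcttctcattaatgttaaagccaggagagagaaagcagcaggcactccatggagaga
Lcn2: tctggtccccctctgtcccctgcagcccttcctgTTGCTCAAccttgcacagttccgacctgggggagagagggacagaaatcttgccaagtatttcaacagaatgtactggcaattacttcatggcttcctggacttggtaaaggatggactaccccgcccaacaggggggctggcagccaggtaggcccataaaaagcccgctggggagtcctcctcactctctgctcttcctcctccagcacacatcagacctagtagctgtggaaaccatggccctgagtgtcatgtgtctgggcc
Orm2: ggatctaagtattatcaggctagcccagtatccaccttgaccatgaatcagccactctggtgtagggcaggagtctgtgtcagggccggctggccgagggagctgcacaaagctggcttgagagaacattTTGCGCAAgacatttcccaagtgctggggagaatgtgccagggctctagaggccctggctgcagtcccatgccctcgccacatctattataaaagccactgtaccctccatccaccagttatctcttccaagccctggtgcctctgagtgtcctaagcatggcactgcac
Saa3: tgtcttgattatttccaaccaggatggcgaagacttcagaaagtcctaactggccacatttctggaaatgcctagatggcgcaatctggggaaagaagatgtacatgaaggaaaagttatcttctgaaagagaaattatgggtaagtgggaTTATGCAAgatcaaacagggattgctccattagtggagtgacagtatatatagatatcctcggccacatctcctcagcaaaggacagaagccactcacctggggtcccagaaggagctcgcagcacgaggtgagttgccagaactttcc

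The *Saa1* and *Saa2* windows were identical at 287 of 301 aligned positions (95.3%), and the *Orm2* and *Orm3* windows at 264 of 305 (86.6%). All other pairs of the 7 windows lay between 47.2% and 54.2% in the same global alignment. Because *Saa1* and *Saa2* are near-identical copies on chromosome 7 and the probe sequences were not used here, signal of one gene may reach the probes of the other. TTGCNNAA, searched on both strands, was present in 7 of 7 windows, against 10.8% of 32851 windows of the same length. The wider pattern TTNNGNAA, which takes in every match of the narrower one, was present in 7 of 7 windows and in 40.7% of all. It was tried first, and the narrower one was chosen after its matches in these windows had been seen. The 7 of 7 for the narrower pattern is therefore no independent result. In all these counts the near-identical windows were counted separately. The match lay 182 bases before the start in *Saa1*, 183 in *Saa2*, 245 and 52 in *Saa4*, 216 in *Lcn2*, 120 in *Orm2* and 99 in *Saa3*. Neither the STAT-type pattern TTCNNNGAA (8.3% of all windows) nor a narrow 10-base NF-kB-type pattern (1.63%) occurred in the 7. The NF-kB-type pattern fixed most of its bases, and wider forms of it or of the STAT-type pattern were not searched. Its absence therefore does not show that these windows, that of *Saa1* included, lack looser NF-kB-type matches. The GATA hexamers, GATA with A or T before it and A or G after it, on either strand, occurred in *Saa3*, *Orm2* and *Orm3*, 3 of 7 windows, against 29.8% of all. Such matches describe letters in a short window only, and say nothing about which factor binds there.

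Before the members, the arrays were checked. Exported median signals ran from 215.38 to 287.53, each array detected 14318 to 16381 probes, and log2 values of array pairs correlated at 0.966 to 0.989 across probes. Of the list of hepatocyte markers 6 of 8 were measured, with a summed linear signal of 102180 to 124210 on the AAV-GFP arrays and 101690 to 123270 on those labelled AAV-Cre. *Gata6* probe ILMN_2868133 was higher on the arrays labelled AAV-Cre (11.59 against 9.88 on the log2 scale, limma adjusted p = 3.77e-04). Excision would lower this signal if the probe lay in the deleted part. A second *Gata6* probe, ILMN_1255968, was dim, at 8.31 in AAV-Cre against 8.04 in AAV-GFP (limma adjusted p = 0.800). It was detected on 4 of 6 AAV-Cre and 0 of 6 AAV-GFP arrays. The positions of these probes relative to the deleted part were not looked up, so they are no check of the excision. The *Gata4* probe lay at background. All directions that follow therefore rest on the labels. AAV-Cre replicate 3 also stood apart, with *Xist* at 13.31 against at most 7.95 on the other 11 arrays. There *Eif2s3y* stood at 7.75 against at least 11.53, and *Kdm5d* at 7.98 against at least 8.61. This is the pattern of a female sample, and the other 11 arrays had that of males, though the labels give no sex. Member differences are given with and without this array, but correlations were not computed without it alone. In RNA from a cell population, fewer cells that express a gene and less RNA per cell cannot be told apart.

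No acute phase probe passed the test between the groups. At a limma adjusted p under 0.05 over all kept probes, 0 of 12 member probes were called, and 0.165% of all probes were (0.0243% in the higher direction). The lowest adjusted p among them was 0.387. At an adjusted p under 0.25 the counts were again 0 of 12 and 0.54% of all, and SAM, the test named in the methods, at a false discovery rate of 25% called 0 of 12 and 0.632% of all. Unadjusted p-values were under 0.05 for 5 of 12 probes, which belong to *Hp*, *Lcn2* and *Fgl1*, all of them higher in AAV-Cre. Of all probes 5.05% had such a p, and 2.52% on the higher side. The groups did not overlap for 0 of 12 member probes and for 0.501% of all probes.

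The signs of the differences leaned one way. Of the 12 probes 11 were above 0, against 51% of all probes, but probes of 1 gene share a transcript and the members share arrays. The median log2 difference was 0.50 over the member probes and 0.48 over the brightest probe of each gene, beside 0.002 over all kept probes. The median standard deviation (SD) within groups was 0.656 on the log2 scale for the members and 0.161 for all probes. An SD within groups of at least 1 was reached by 2 of 12 member probes, both of *Saa1*, and by 0.584% of all probes.

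**Figure D1:**
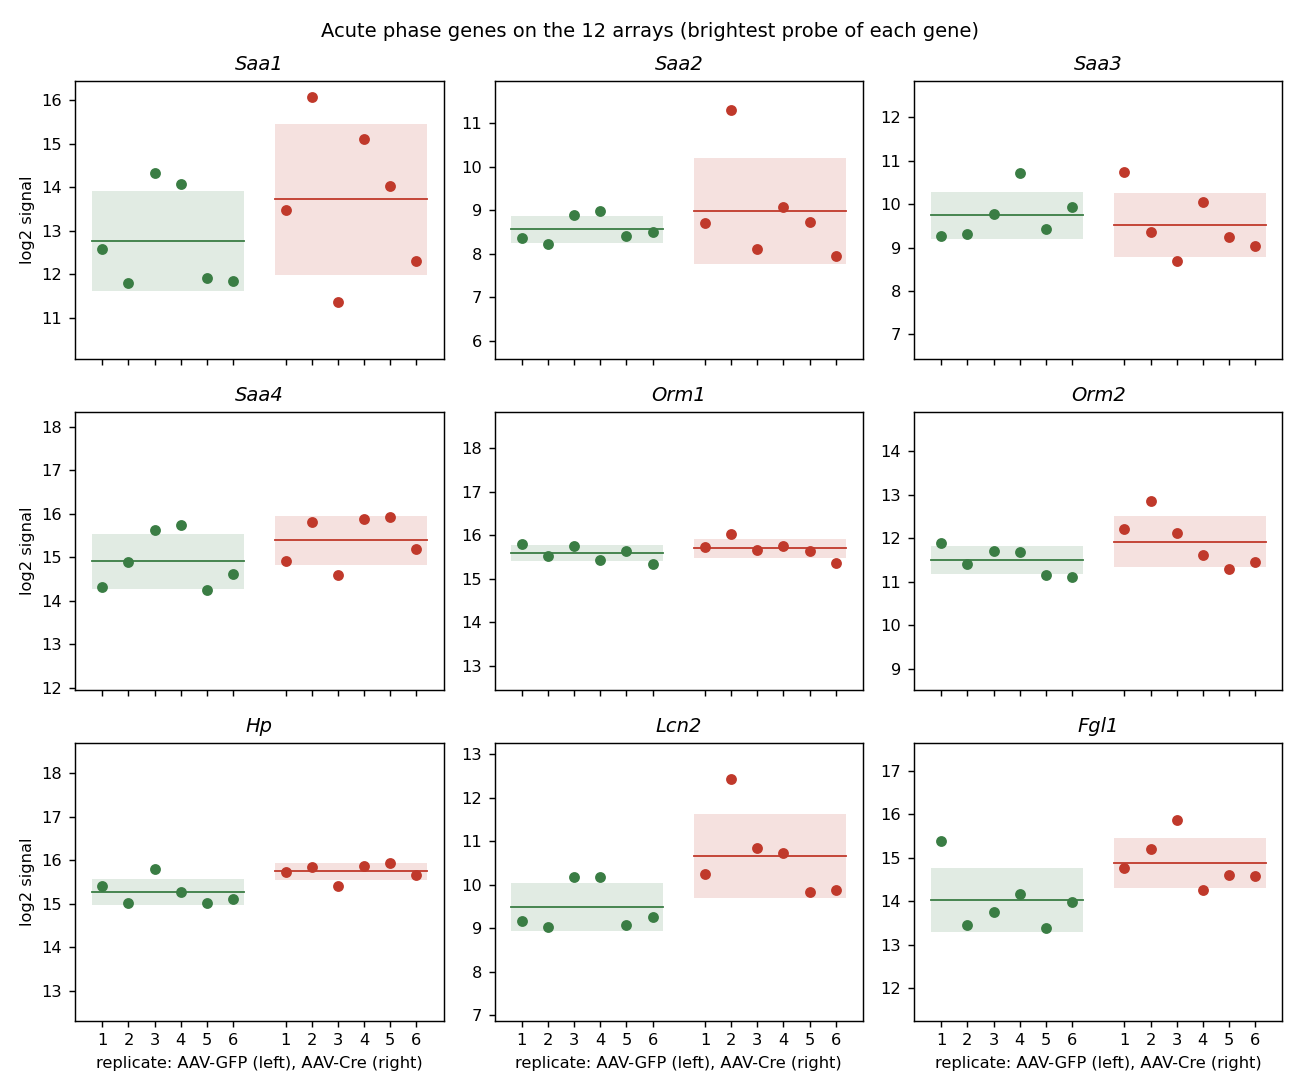
Log2 quantile-normalized signal of the brightest probe of each of the 9 measured genes on the 6 AAV-GFP (green, left) and 6 AAV-Cre (red, right) arrays, with the group mean (line) and 1 SD either side (band); every panel spans the same log2 height. *Saa1* spread over 4.70 log2 units and *Orm1* over 0.67, and AAV-Cre replicate 2 was the highest array for 5 of the 9 genes.

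*Saa1* and *Saa2* encode the inducible serum amyloid A proteins, small apolipoproteins that join high-density lipoprotein in acute inflammation. The brighter *Saa1* probe (ILMN_2768154) had log2 signals on the AAV-GFP arrays from 11.81 through a median of 12.26 to 14.34. On the AAV-Cre arrays it ran from 11.37 through a median of 13.76 to 16.07. The lowest and the highest of all 12 arrays were both labelled AAV-Cre (replicates 3 and 2), a 26.0-fold span, so that one group enclosed the other. In AAV-Cre replicate 2 its exported signal was 70023.4, near that array's maximum of 72782, so this span may be understated. Other probes also came near the top of the scale on their highest array, *Orm1* at 69389.5, *Hp* ILMN_2668510 at 64766.7, *Fgl1* ILMN_1242370 at 64094.4 and *Saa4* at 63734. The log2 difference was 0.97 (SE 0.74, 95% confidence interval -0.62 to 2.55, limma adjusted p = 1.00, exact permutation p = 0.286). It was 0.50 without AAV-Cre replicate 2, 1.44 without replicate 3 and 0.97 without both.

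The same arrays were high for the second *Saa1* probe, ILMN_2826869, which ran from 8.13 through 9.17 to 10.22 on the AAV-GFP arrays and from 8.53 through 9.32 to 11.93 on the AAV-Cre arrays. Its difference of 0.52 (SE 0.53, limma adjusted p = 1.00, exact permutation p = 0.457) was 0.068 without AAV-Cre replicate 2 and 0.75 without replicate 3. *Saa2* was dim, detected on 5 of 6 AAV-GFP and 4 of 6 AAV-Cre arrays. Its log2 signals were 8.23, 8.45 and 9.00 (lowest, median and highest) in AAV-GFP and 7.96, 8.73 and 11.31 in AAV-Cre. Only AAV-Cre replicate 2 lay above 9.08. The *Saa2* difference was 0.42 (SE 0.44, limma adjusted p = 1.00, exact permutation p = 0.576), and -0.042 without that array, so that 1 array decided its direction. Without AAV-Cre replicate 3 it was 0.60.

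*Saa3* and *Saa4* are the other serum amyloid A genes of the same cluster. *Saa3*, which in mice is made largely by macrophages, fat and epithelia, was the only member that lay lower in AAV-Cre. Its log2 signals ran from 9.27 through 9.61 to 10.72 in AAV-GFP and from 8.69 through 9.29 to 10.73 in AAV-Cre. Of the AAV-Cre arrays, 3 of 6 lay below every AAV-GFP array and 1 lay above them all. The difference was -0.22 (SE 0.33, limma adjusted p = 1.00, exact permutation p = 0.567), -0.057 without AAV-Cre replicate 3 and 0.024 when AAV-Cre replicates 2 and 3 were both left out. *Saa4*, the constitutive form, ran from 14.25 through 14.75 to 15.74 in AAV-GFP and from 14.60 through 15.51 to 15.94 in AAV-Cre. Its difference was 0.49 (SE 0.30, 95% confidence interval -0.17 to 1.14, limma adjusted p = 1.00, exact permutation p = 0.180), and 3 AAV-Cre arrays exceeded the highest AAV-GFP array. Without AAV-Cre replicate 3 the difference was 0.64.

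The orosomucoid genes encode alpha-1-acid glycoprotein, a plasma carrier of basic and neutral ligands. *Orm1* had the narrowest range of the brightest probes, at 15.35, 15.58 and 15.81 (lowest, median and highest) in AAV-GFP and 15.37, 15.71 and 16.02 in AAV-Cre. Its exported signal reached 69389.5 on a scale whose highest value per array was 70942 to 72782, so it lay near the top of what the arrays recorded, and its narrow range does not show that its level was steady. The *Orm1* difference was 0.11 (SE 0.11, 95% confidence interval -0.12 to 0.35, limma adjusted p = 1.00, exact permutation p = 0.344). It was 0.050 without AAV-Cre replicate 2, 0.12 without replicate 3 and 0.18 without replicate 6. *Orm2* ran from 11.12 through 11.55 to 11.91 in AAV-GFP and from 11.29 through 11.87 to 12.86 in AAV-Cre. AAV-Cre replicates 1, 2 and 3 lay above all AAV-GFP arrays. Its difference of 0.43 (SE 0.24, limma adjusted p = 1.00, exact permutation p = 0.145) was 0.24 without AAV-Cre replicate 2 and 0.39 without replicate 3.

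*Hp*, *Lcn2* and *Fgl1* held all the unadjusted p-values under 0.05. *Hp* encodes haptoglobin, which binds free haemoglobin in plasma. Its brighter probe, ILMN_2668510, ran from 15.01 through 15.18 to 15.80 in AAV-GFP and from 15.41 through 15.78 to 15.94 in AAV-Cre. Every AAV-Cre array lay above the AAV-GFP mean, and 3 of 6 above the highest AAV-GFP array. The difference was 0.48 (SE 0.13, 95% confidence interval 0.19 to 0.77, limma adjusted p = 0.387, exact permutation p = 0.0130). Probe ILMN_2668509 gave 14.46, 14.83 and 15.63 in AAV-GFP and 15.21, 15.45 and 15.61 in AAV-Cre. With AAV-GFP replicate 3 as the highest of all arrays, its difference was 0.55 (SE 0.17, limma adjusted p = 0.528, exact permutation p = 0.0260). Leaving out AAV-GFP replicate 3 brought the lowest adjusted p of these probes to 0.0559, still not past the threshold. Without AAV-Cre replicate 3 the differences were 0.54 for ILMN_2668510 and 0.59 for ILMN_2668509.

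*Lcn2* encodes lipocalin 2, a secreted protein that binds iron-loaded bacterial siderophores. It ran from 9.03 through 9.22 to 10.19 in AAV-GFP and from 9.84 through 10.48 to 12.42 in AAV-Cre. AAV-GFP replicates 3 and 4 reached into the AAV-Cre range, while 4 of 6 AAV-Cre arrays lay above them. Its log2 difference was 1.17, a 2.26-fold ratio of group means (SE 0.39, 95% confidence interval 0.33 to 2.02, limma adjusted p = 0.638, exact permutation p = 0.0173). It was 0.82 without AAV-Cre replicate 2, 1.14 without replicate 3 and 0.68 without both.

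*Fgl1* encodes fibrinogen-like 1, a protein secreted by hepatocytes. Probe ILMN_1242370 ran from 13.38 through 13.88 to 15.39 in AAV-GFP and from 14.25 through 14.68 to 15.86 in AAV-Cre. AAV-GFP replicate 1 alone of its group exceeded 14.17, and AAV-Cre replicate 3 was the highest array. The difference was 0.85 (SE 0.33, limma adjusted p = 0.807, exact permutation p = 0.0519), 0.65 without AAV-Cre replicate 3 and 1.12 without AAV-GFP replicate 1. Its second probe, ILMN_2897167, had the same highest and lowest arrays and a difference of 0.89 (SE 0.39, limma adjusted p = 0.95, exact permutation p = 0.0779), 0.66 without AAV-Cre replicate 3.

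**Figure D2:**
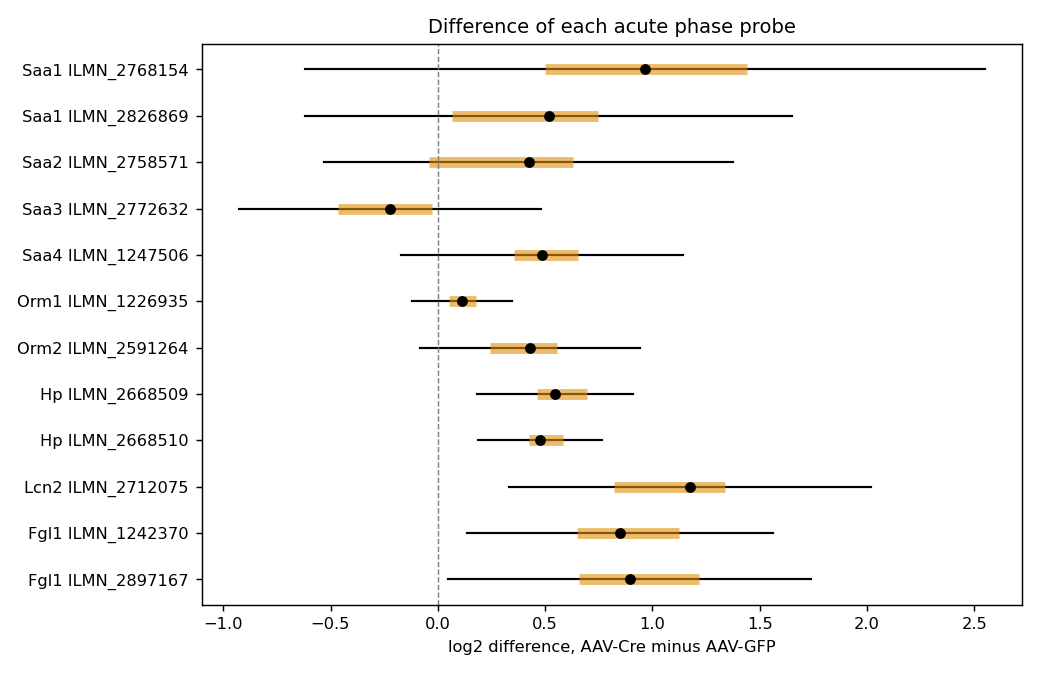
Log2 difference (AAV-Cre minus AAV-GFP) of each of the 12 probes as a point, with limma's 95% confidence interval (line) and the range when each array was left out in turn (orange bar). The *Saa1* interval runs from -0.62 to 2.55 and encloses 0, whereas those of *Hp*, *Lcn2* and *Fgl1* lie above 0 before adjustment over all probes.

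The members did not all follow the same arrays. With each gene's brightest probe centred on its mean, AAV-Cre replicate 2 averaged 1.19 log2 units above the mean over the 9 genes and AAV-Cre replicate 4 averaged 0.46 above. AAV-GFP replicates 2, 5 and 6 averaged -0.61, -0.66 and -0.50. AAV-Cre replicate 2 was among the 3 highest arrays for 8 of 9 genes and the highest array for 6 of 12 probes, beside 7.95% of all probes. Highest on other arrays were *Saa3* (AAV-Cre replicate 1), *Saa4* and *Hp* (AAV-Cre replicate 5) and *Fgl1* (AAV-Cre replicate 3).

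Correlations over the 12 arrays were computed for all 36 pairs of the 9 genes, and 33 were above 0, with a median Pearson's r of 0.51. After Benjamini-Hochberg adjustment of permutation p-values over the 36 pairs, 3 pairs passed by Pearson's r and 1 by Spearman's rho. Each array has its own amplification and scaling, which its genes share, and pairs of other genes were not counted. These counts therefore cannot be read as particular to acute phase genes. *Saa1* and *Saa2* had r = 0.83 (permutation p = 3e-05, adjusted p = 0.00108) and rho = 0.88 (permutation p = 0.00027, adjusted p = 0.00972). That r was 0.92 within AAV-GFP, 0.86 within AAV-Cre, 0.89 without AAV-Cre replicate 2 and 0.85 without the 2 arrays farthest from the *Saa1* median. These probes could share signal, as stated for the near-identical copies above.

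*Saa1* and *Saa4* had r = 0.83 (permutation p = 0.00149, adjusted p = 0.0268) and rho = 0.76 (permutation p = 0.00522, adjusted p = 0.0626). Within AAV-GFP r was 0.85 and within AAV-Cre 0.83, and it was 0.80 without the 2 farthest arrays. *Orm2* and *Lcn2* had r = 0.82 (permutation p = 0.00236, adjusted p = 0.0283) and rho = 0.71 (permutation p = 0.0119, adjusted p = 0.0711). There r was 0.47 within AAV-GFP, 0.86 within AAV-Cre and 0.59 without AAV-Cre replicate 2, so much of its size rests on that array. For *Saa1* and *Lcn2*, r was 0.71 (permutation p = 0.00772, adjusted p = 0.0532) and rho 0.51 (permutation p = 0.0933, adjusted p = 0.24). Their r was 0.96 within AAV-GFP, 0.57 within AAV-Cre and 0.32 without the 2 farthest arrays, and the relation did not hold there.

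Correlations of *Fgl1* and *Saa3* differed by partner and by the arrays used. *Fgl1* had r = 0.08 with *Saa1* (permutation p = 0.797, adjusted p = 0.897, rho = 0.10) and r = 0.68 with *Orm2* (permutation p = 0.0148, adjusted p = 0.0533, rho = 0.69). *Saa3* had r between -0.33 and 0.37 with the other 8 genes over all 12 arrays. With *Saa2* its r was 0.17 (permutation p = 0.585, adjusted p = 0.711) and its rho 0.62 (permutation p = 0.0351, adjusted p = 0.126). That r was 0.75 without AAV-Cre replicate 2, 0.72 without the 2 farthest arrays, 0.84 within AAV-GFP and 0.14 within AAV-Cre, so its low value rests on AAV-Cre replicate 2. Within AAV-GFP *Saa3* also had r of 0.61 with *Saa1*, 0.72 with *Saa4* and 0.76 with *Lcn2*. In either group alone 0 of 36 pairs passed. Within 6 arrays the smallest exact p is 0.00139, which adjustment over 36 pairs brings to the threshold of 0.05 for a single pair, so this count says nothing about the relations.

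**Figure D3:**
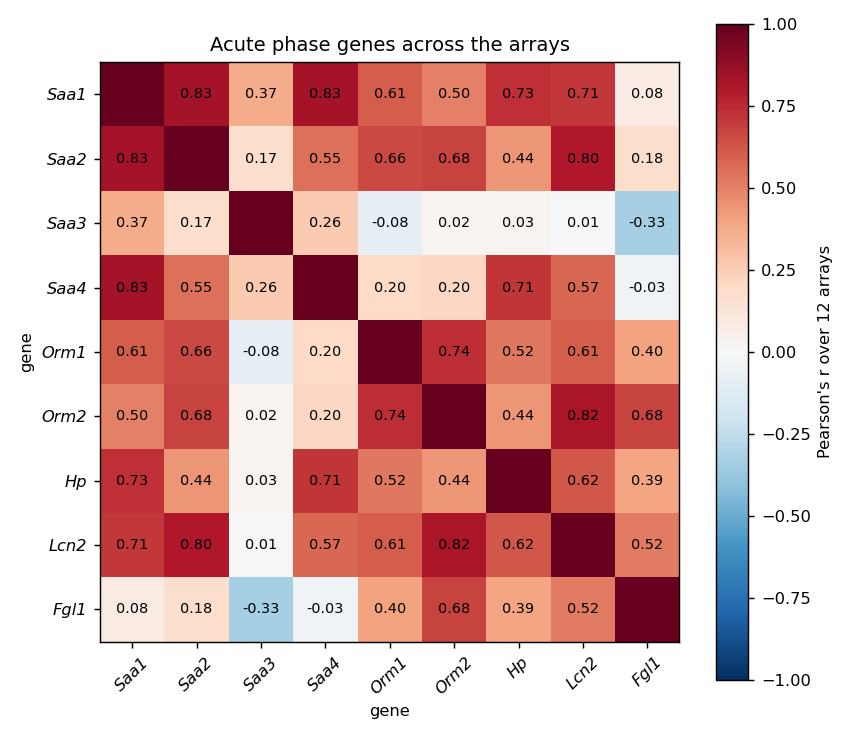
Pearson's r over the 12 arrays between the log2 signals of the brightest probes of the 9 genes (rows and columns, red above 0 and blue below 0). *Saa1* with *Saa2* and with *Saa4* both reach 0.83, while the *Saa3* row runs from -0.33 to 0.37 over all arrays.

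Other genes of the acute phase response were read from lists of textbook members, by the brightest probe of each gene, and 0 members of any list passed at a limma adjusted p under 0.05. Of 28 other positive acute phase genes 22 were measured, 14 above 0 and 8 below, with a median difference of 0.14. *Lrg1*, which encodes the secreted leucine-rich alpha-2-glycoprotein, came nearest. Its log2 signals were 15.09 to 15.43 in AAV-GFP and 15.47 to 15.97 in AAV-Cre, without overlap. The *Lrg1* difference was 0.43 (SE 0.10, limma adjusted p = 0.173). Its exact permutation p was 0.00216, the smallest these groups allow, and AAV-Cre replicate 2 was again the highest array. *Itih3*, an inter-alpha-trypsin inhibitor heavy chain, differed by 0.37 (limma adjusted p = 0.590).

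The probes of *Nnmt*, nicotinamide N-methyltransferase, differed by 1.62, 1.66 and 2.25 with limma adjusted p of 1.00, 0.748 and 0.797. Its brightest probe ran from 8.82 to 14.38 in AAV-GFP and from 10.88 to 14.62 in AAV-Cre, both wide and overlapping, with AAV-Cre replicate 6 the highest. *C4b*, complement component 4B, lay lower by all 3 of its probes, at -0.30, -0.20 and -0.29 (lowest limma adjusted p = 0.803).

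Negative acute phase genes, whose transcripts decline in the acute phase response, were measured for 7 of 12 listed members, 4 above 0 and 3 below, with a median of 0.01. *Apoa2*, an apolipoprotein of high-density lipoprotein, lay between 12.03 and 12.29 in AAV-GFP and between 11.73 and 12.01 in AAV-Cre, without overlap. Its difference was -0.34 (SE 0.07, limma adjusted p = 0.0970). *Igf1*, the circulating growth factor made by the liver, lay on the other side of 0, with 0.28 and 0.22 for its probes (limma adjusted p = 0.515 and 0.613). For the brighter of them, ILMN_1225565, the groups also did not overlap, at 14.71 to 14.83 in AAV-GFP and 14.84 to 15.20 in AAV-Cre. The exact permutation p of this probe was 0.00216. *F12* and *Rbp4*, coagulation factor XII and the retinol carrier, had differences between 0.01 and 0.16 with limma adjusted p of 1.00 each.

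In the interleukin-6 and STAT3 list 19 of 23 genes were measured, 15 above 0 and 4 below, with a median of 0.09. *Socs3*, a feedback inhibitor that STAT3 switches on, was 8.68 to 9.79 in AAV-GFP and 9.26 to 11.95 in AAV-Cre. AAV-Cre replicate 2 alone exceeded 10.11, and the difference was 0.78 (SE 0.38, limma adjusted p = 1.00), 0.40 without that array. For *Stat3* probe ILMN_2698046 AAV-Cre replicate 2 had 12.89 and the other arrays 11.35 to 12.00, and the difference was 0.39 (limma adjusted p = 0.980), 0.22 without that array. The other *Stat3* probes differed by 0.32 and 0.14 (limma adjusted p = 1.00 for both). *Cebpb*, a transcription factor of the acute phase response, differed by 0.36 (limma adjusted p = 0.920), with AAV-Cre replicate 6 highest. *Socs1*, another feedback inhibitor, differed by 0.18 near background (limma adjusted p = 1.00).

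Of the interleukin-1 and NF-kB list 17 of 25 genes were measured, 9 above 0 and 8 below, with a median of 0.06. *Nfkbiz*, an NF-kB cofactor, differed by 0.40 (limma adjusted p = 0.857), *Il1r1*, the interleukin-1 receptor, by 0.31 and *Il1b*, interleukin-1 beta, by -0.28 (limma adjusted p = 1.00 for both). The *Tnfrsf1a* probes, for a tumour necrosis factor receptor, differed by -0.15 and 0.09, both near background. In the glucocorticoid list 9 of 9 genes were measured, 8 above 0, with a median of 0.07. *Hsd11b1*, which regenerates active glucocorticoid, differed by 0.20 (limma adjusted p = 0.811). *Fkbp5*, *Per1* and *Tsc22d3*, all glucocorticoid-induced, had differences of 0.06 to 0.45 with limma adjusted p of 1.00.

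The genes whose pattern over the 12 arrays was most like the mean of *Saa1*, *Saa2* and *Lcn2*, after centring within groups, were *Rab29* (r = 0.92), *Cxcl1* (0.89), *Rnase2a* (0.88), *Mt2* (0.87), *Brdt* (0.87), *Rsph9* (0.87), *Rab4b* (0.85) and *Stat3* (0.85), out of 8547 candidates. These values describe the arrays and were not tested. Without AAV-Cre replicate 2, r was 0.91 for *Rab29*, 0.78 for *Mt2*, 0.72 for *Cxcl1* and 0.59 for *Stat3*. *Cxcl1*, a chemokine that attracts neutrophils, stood at 15.09 in AAV-Cre replicate 2 and between 10.24 and 12.52 on the other arrays, with its lowest value in AAV-Cre replicate 3. *Mt2*, a metallothionein induced by zinc, glucocorticoids and inflammation, stood at 10.43 in AAV-Cre replicate 2 and between 8.17 and 9.72 elsewhere. *Rab29* spanned only 10.19 to 10.46, *Brdt* 8.31 to 8.65 and *Rab4b* 8.68 to 9.03, so their r describes small movements. All the listed genes were highest in AAV-Cre replicate 2. The mean by which they were chosen was also highest there, at 2.14, so this follows in part from the choice.

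**Figure D4:**
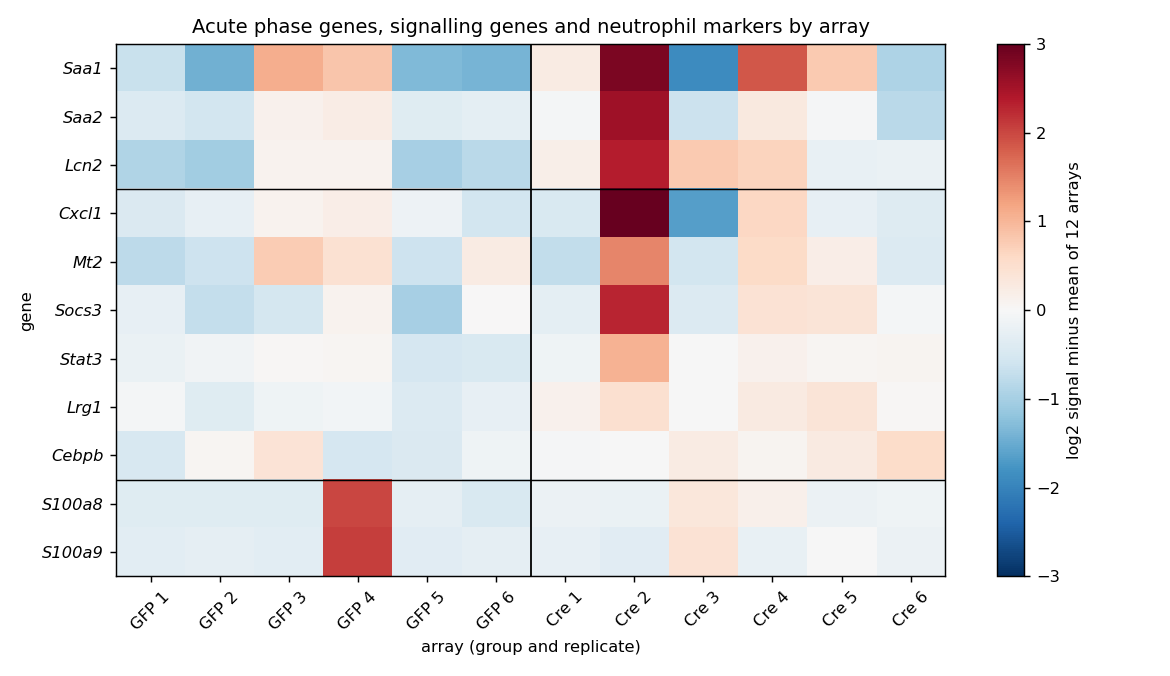
Log2 signal minus the mean of the 12 arrays (colour, clipped at 3) for *Saa1*, *Saa2* and *Lcn2* (top), for *Cxcl1*, *Mt2* and genes of the pathway lists (middle) and for the neutrophil markers *S100a8* and *S100a9* (bottom), by array. *Saa1*, *Saa2*, *Lcn2*, *Cxcl1*, *Socs3* and *Stat3* are highest in AAV-Cre replicate 2, and the neutrophil markers in AAV-GFP replicate 4.

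Neutrophils also make *Lcn2*, so markers of that cell type were read on the same arrays. Of 12 listed neutrophil markers 8 were measured and 1 was detected on at least 6 arrays. Their summed linear signal was 1944.9 to 4444.9 in AAV-GFP and 2106.4 to 2465.7 in AAV-Cre, highest in AAV-GFP replicate 4. *S100a8* and *S100a9* stood at 10.26 and 10.27 in that array. In AAV-Cre replicate 2, where *Lcn2* was highest, they stood at 8.06 and 7.87, below the mean lowest detected value of 8.22. Other markers of the list went the other way. *Prtn3* was detected only in AAV-Cre replicate 2, at 9.18 against at most 8.22 elsewhere. *Elane* was detected on 5 of 6 AAV-Cre arrays, this one included at 8.30, and on 1 of 6 AAV-GFP arrays. By the summed signal AAV-Cre replicate 2 ranked 3 of 12. The part of neutrophils in the *Lcn2* values was not tested. Markers of Kupffer cells and macrophages, which make *Saa3*, were measured for 9 of 12 listed symbols. *Emr1* and *Adgre1* on that list name the same gene, which was measured as *Adgre1*. The sums were 2418.5 to 5976.9 in AAV-GFP and 2888.9 to 5473.5 in AAV-Cre. AAV-GFP replicate 4 ranked 1 for that sum and 2 for *Saa3*, AAV-Cre replicate 1 ranked 2 and 1, and AAV-Cre replicate 6 ranked 3 and 11. The part of these cells in the *Saa3* values was not tested.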

How the data were processed

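Total RNA of purified hepatocytes was amplified, labelled with biotin and hybridised to Illumina MouseWG-6 v2 arrays by the authors, who kept samples of high RNA integrity. The deposited export holds a probe intensity on a linear scale and a detection p-value per probe for 12 arrays and 45281 probes. The authors' value table holds intensities that they quantile-normalized and filtered on detection, for 19627 probes. It was log2-transformed here and used as an alternative, and its platform annotation gave the gene symbols. Of the kept probes, 16568 had 1 symbol.

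From the deposited intensity, values were quantile-normalized between arrays, probes were kept where the detection p was at most 0.05 on at least 1 array, and log2 was taken. limma 3.58.1 (lmFit and eBayes, R 4.3.3) compared AAV-Cre with AAV-GFP without pairing, two-sided, with Benjamini-Hochberg adjustment over 20561 probes. SAM used 100 label permutations. The exact two-sided permutation test of a difference of means used all 924 assignments, and 0.00216 is its smallest p. Correlations used 100000 resamples over 12 arrays (two-sided) and all 720 orders within 6. No background was subtracted, so differences of dim probes are compressed, and the number of arrays limits precision. Scripts were tested on simulated data.

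The members and gene lists were chosen with earlier results of these data known. Named were all kept member probes, of each list any called gene and otherwise up to 4 genes with the lowest unadjusted p, the 8 genes most correlated with the mean of *Saa1*, *Saa2* and *Lcn2*, and *Gata4* and *Gata6*. Lists of endothelial, bile duct, stellate and erythroid markers held 0 called genes. Alternatives were median scaling, normexp background correction (offset 16), the authors' value table, other detection filters, array weights, a robust trend, the replicate number as a block, a threshold of 0.25 and leaving out arrays.

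Same-numbered arrays of the groups deviated together with correlations of -0.195 to 0.399. These values do not settle whether the numbers mark pairs. The main test took no pairing, and the block was run beside it. With the block, the unadjusted limma p moved from 0.0935 to 0.0370 for *Orm2* and from 0.00337 to 0.0161 for *Hp* ILMN_2668510.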

Additional observations from a re-analysis of the deposited data

Results flagged for a closer look

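Within a group of 6 arrays, 5 of 64 sets of values held an array whose gap to its nearest neighbour exceeded Dixon's 95% critical share of the range, where chance gives about 1 in 20. *Saa2* stood at 11.31 on the log2 scale in AAV-Cre replicate 2, with the next array at 9.08. In the same array *Socs3* stood at 11.95 (next 10.11) and *Stat3* probe ILMN_2698046 at 12.89 (next 12.00). AAV-Cre replicate 1 was low for *Fkbp5*, at 10.35 with the next array at 11.68, and for *Rbp4*, at 13.65 with the next at 13.95.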

How the results depend on the processing

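The count of called acute phase probes was 0 of 12 under every alternative run, including SAM, the replicate block, 12 leave-one-out fits and, added after seeing the data, leaving out AAV-Cre replicates 2 and 3 together. Over all probes the calls were 34, and they were 10 with median scaling, 18 with normexp, 20 with the replicate block or without both of those arrays, and 19 to 42 with 1 array left out. The block changed no call of a member, and 3 of 6 AAV-GFP arrays correlated best with their own number. Median scaling moved the median difference of all probes from 0.002 to 0.029. Differences kept their direction except for *Saa2*, which ranged from -0.042 (without AAV-Cre replicate 2) to 0.63 with 1 array left out, and *Saa3*, at 0.024 without both arrays and -0.46 to -0.027 with 1 left out. Without AAV-Cre replicate 2 *Saa1* ILMN_2826869 was lowest at 0.068. The 3 correlated pairs became 5 with median scaling, 5 with group-centred values, 1 without AAV-Cre replicate 2, and 0 within AAV-GFP, within AAV-Cre or without the 2 farthest arrays, and the last 4 of these use fewer arrays. *Saa1* with *Fgl1* (r = 0.08) turned to -0.42 within AAV-Cre, -0.12 without the 2 farthest arrays, -0.15 with group-centred values and -0.13 without AAV-Cre replicate 2, and the cause was not tested. Dim probes such as *Saa2* lie near the detection limit. The brighter probes of *Saa1*, *Saa4*, *Orm1*, *Hp* and *Fgl1* came near the top of the scale on their highest array. On their lowest array the exported signal was 2904.69 for *Saa1* and 10503.9 for *Fgl1*, far from the top.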
